A study of Mus musculus with 2 samples.

Results

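The genes described here are the replication-dependent histone genes of the mouse, taken as every symbol in the gene list that starts with Hist1h, Hist2h, Hist3h or Hist4h. Membership goes by symbol alone, and some members, Hist3h2ba among them, were not higher in cycling cells in these data. The rule found 67 of 32285 genes: 6 of the linker histone H1, 18 of H2A, 18 of H2B, 12 of H3 and 13 of H4. They were measured in 2 single-cell libraries of cerebellum at embryonic day E16.5. The control library came from cre-negative embryos, and whether these carried any floxed allele was not stated in the labels. The mutant library came from embryos that carried Blbp-cre, cre under the promoter of Blbp, a gene of radial glia and other neural progenitors. They also carried Ctnnb1(ex3)fl/wt, an allele whose recombination removes an exon and stabilises beta-catenin, and Smarca4fl/fl, a floxed gene of a chromatin remodelling ATPase. Each library pooled 3 samples of its genotype, so there is 1 library per genotype, no replicate and no test. The 95% intervals below are exact and cover counting error only. Those of levels and ratios take each counted molecule as independent, although histone RNA was concentrated in few cells. A difference larger than its interval may therefore still lie within the spread between cells, litters or preparations.

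Replication-dependent histone genes supply the core histones H2A, H2B, H3 and H4, around which DNA is wound, and the linker histone H1, which binds between nucleosomes. Most are transcribed in S phase from dense gene clusters, and their mRNAs typically end in a short stem-loop in place of a poly(A) tail. Some of them also give polyadenylated transcripts, in particular in cells that have left the cell cycle. The libraries were primed from poly(A), so they read the polyadenylated or A-rich part of each gene's RNA, and the part that was missed was not measured.

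All 67 genes were found by identifier in the GENCODE M21 annotation (GRCm38). The Hist1 cluster on chromosome 13 held 54 of them between positions 21715763 and 23934851. The Hist2 cluster on chromosome 3 held 10 within 50.3 kb, chromosome 11 held 2 and chromosome 6 held 1. A search of the annotated transcripts after the stop codon for the consensus of the histone stem-loop, on the transcript strand, found it in 46 of the 67 genes. Of 21901 protein-coding genes searched, 62 (0.283%) held it. Of the 21 genes without a match, 15 had 5 or fewer annotated bases after the stop codon, so the stretch that would hold the stem-loop was hardly annotated. The 3 commonest forms and 1 of the 2 forms found in 2 members are shown because the same RNA element is carried by members that behaved very differently below. Capitals mark the paired stem and lower case the loop, in DNA letters from GENCODE transcripts.
26 members of H1, H2A, H2B and H3, among them Hist1h2ae and Hist3h2ba: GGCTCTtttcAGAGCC
7 members of H4, among them Hist1h4d and Hist4h4: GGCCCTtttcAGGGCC
6 members of H1, H2B and H3, among them Hist1h3c and Hist1h2bk: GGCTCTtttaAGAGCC
2 members of H4, Hist1h4i and Hist2h4: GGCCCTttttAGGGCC

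Many histone genes lie head to head with a neighbour and share the DNA between their start sites. Starts within 1000 bases of each other were found for 13 such pairs, of which 12 joined an H2A gene to an H2B gene. Promoters from RefSeq (GRCm38.p6) were found for 61 members. The core promoter word TATAAA was in 57.4% of them, against 13.6% of all 32851 promoters of the same length. CCAAT, the word bound by the factor NF-Y, was in 85.2% against 37.4%. It was in all 6 promoters of H1, all 17 of H2A, all 16 of H2B and all 10 of H3, and in 3 of 12 of H4. The octamer ATTTGCAT was in 21.3% against 1.74%, in 7 promoters of H2A and 6 of H2B and in none of the other subtypes. All words were searched on both strands, and a match is not a measured binding site. The share for TATAAA thus includes members that hold it only on the opposite strand, among them Hist1h2ae, Hist1h2bn, Hist1h2bp, Hist1h2bk and Hist1h2bf. Each of these lies head to head with a neighbour. Upstream stretches of 4 members are printed because these members take different sides in the results. Capitals mark matches to the 3 words on either strand, and each run is 5′ to 3′ on the strand of its gene.
Hist1h2ae, chr13:23571221-23571395, minus strand, the DNA it shares with Hist1h2bg: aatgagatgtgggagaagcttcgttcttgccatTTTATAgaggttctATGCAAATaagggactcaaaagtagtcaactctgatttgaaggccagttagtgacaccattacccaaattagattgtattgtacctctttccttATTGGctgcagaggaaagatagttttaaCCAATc
Hist1h2ac, chr13:23683960-23684198, minus strand, the DNA it shares with Hist1h2bc: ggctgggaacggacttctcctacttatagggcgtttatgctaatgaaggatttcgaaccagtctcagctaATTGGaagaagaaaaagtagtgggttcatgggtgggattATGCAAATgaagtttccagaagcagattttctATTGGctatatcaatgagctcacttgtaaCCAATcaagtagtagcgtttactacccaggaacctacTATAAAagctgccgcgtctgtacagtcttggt
Hist3h2ba, chr11:58948661-58948910, plus strand: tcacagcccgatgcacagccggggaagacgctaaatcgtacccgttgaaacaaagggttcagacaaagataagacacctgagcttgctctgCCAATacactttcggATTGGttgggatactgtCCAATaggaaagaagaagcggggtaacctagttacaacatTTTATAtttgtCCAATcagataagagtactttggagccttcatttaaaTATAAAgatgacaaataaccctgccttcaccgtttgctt
Hist1h1b, chr13:21780626-21780875, minus strand: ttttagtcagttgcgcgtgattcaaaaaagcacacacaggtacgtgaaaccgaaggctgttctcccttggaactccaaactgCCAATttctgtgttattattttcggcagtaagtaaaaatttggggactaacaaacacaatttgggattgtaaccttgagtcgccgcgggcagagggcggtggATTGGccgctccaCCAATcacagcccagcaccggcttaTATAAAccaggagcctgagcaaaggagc

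After removal of poor cells and called doublets, 15969 control and 15864 mutant cells remained, with a median of 10016 and 9714 unique molecular identifiers (UMIs, counted mRNA molecules) per cell. The 2 libraries shared 64 cell barcodes, 0.401% of the control's. Haemoglobin RNA made up 7.55% of control and 8.74% of mutant UMIs. Smarca4 was at 68.2 CPM (UMIs of a gene relative to 1000000 UMIs of all genes) in control and 49.5 in mutant, a ratio of 0.726 (0.706 to 0.746). Ctnnb1 was at 118 and 172 CPM. Both were read at their 3′ ends, and tags there do not check whether an upstream exon was deleted.

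Of the 67 histone genes, 65 had at least 1 UMI and 55 reached a mean of 1 CPM. The 2 genes with none, Hist1h2aa and Hist1h2ba, and Hist1h1t, with 3 control and 4 mutant UMIs, are known from testis. A median cell held 5 histone UMIs in either library, and the highest cell held 496 in control and 863 in mutant. The tenth of cells with the most held 66.3% of the histone UMIs in control and 62.4% in mutant, while 13.0% and 12.5% of cells held none. The 5 members with most UMIs held 55.2% and 56.7%. Histone RNA was thus concentrated in few cells and few genes.

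Summed over all members, histone RNA was at 1433 CPM in control and 1198 CPM in mutant, a ratio of 0.836 (0.831 to 0.841). The subtypes did not move together. H3 was lowest relative to control, at 128 and 86.8 CPM (ratio 0.678). H2A was at 527 and 381 CPM (0.722), H4 at 132 and 103 CPM (0.780) and H1 at 312 and 256 CPM (0.820). H2B was higher in the mutant, at 335 and 372 CPM, a ratio of 1.11 (1.10 to 1.12). The H2B share of all histone UMIs was therefore 23.4% in control and 31.1% in mutant.

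Gene by gene, 48 of the 55 members had a lower level in the mutant and 7 a higher one. The same split over all genes is not given, and only their median ratio stands beside it below. A ratio beyond 1.5-fold, a line of size and not of a test, was passed downward by 16 members (29.1%), while 7.72% of the 15026 genes tested were that much lower. Upward it was passed by Hist1h2bc, 1 of 55 (1.82%), against 11.0% of all genes. The members' median log2 ratio was -0.39, beside 0.04 for all genes. The 16 were 4 H2A, 7 H2B, 4 H3 and 1 H4 genes. The H2B genes had a median log2 ratio of -0.54 although their sum was higher in the mutant, because 2 of them, Hist3h2ba and Hist1h2bc, hold most H2B UMIs.

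To see the members in cells at different points of the cell cycle, cells were thinned to 3000 UMIs and binned by 38 S-phase genes and 51 G2/M genes, none of them a member. S-high cells had at least 6 S-phase UMIs and G2/M-high cells at least 15 G2/M UMIs. Cells high for both lists had by far the most histone RNA, 4317 CPM in control and 5034 CPM in mutant. Cells low for both had 585 and 637 CPM. Cells high for the S-phase list alone had 614 and 660 CPM, and cells high for the G2/M list alone 1393 and 1444 CPM. In each of the 4 bins the mutant library had the higher level, by 1.09, 1.07, 1.17 and 1.04 times in the order low for both, S-high alone, high for both, and G2/M-high alone. In all S-high cells together the levels were 3003 and 3326 CPM, a ratio of 1.11 (1.10 to 1.12). The same bin held different cell types in the 2 libraries. By the marker gates below, granule cell precursors were 612 of 2194 control and 136 of 1169 mutant cells high for both lists. Cells gated on lesion genes, 0 in control, were 225 of these 1169 and 2748 of 11091 mutant cells low for both. The bin ratios thus compare unlike mixes of cells, and the part of this in them was not tested.

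The bins were filled differently. Cells high for both lists numbered 2194 in control (16.2%) and 1169 in mutant (8.45%), and all S-high cells made up 27.2% and 15.4%. When the control library's level in each bin was weighted by the mutant library's share of UMIs in that bin, the sum came to 1083 CPM, 0.741 times the control's 1462 CPM over the binned cells. The mutant's measured sum over its binned cells was 1216 CPM, 0.831 times control and 1.12 times the weighted value. The same weighting gave 0.668 for H1, 0.665 for H2A, 0.634 for H3 and 0.716 for H4, each below the measured ratio, and 0.980 for H2B, whose measured ratio was 1.11.

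**Figure D1:**
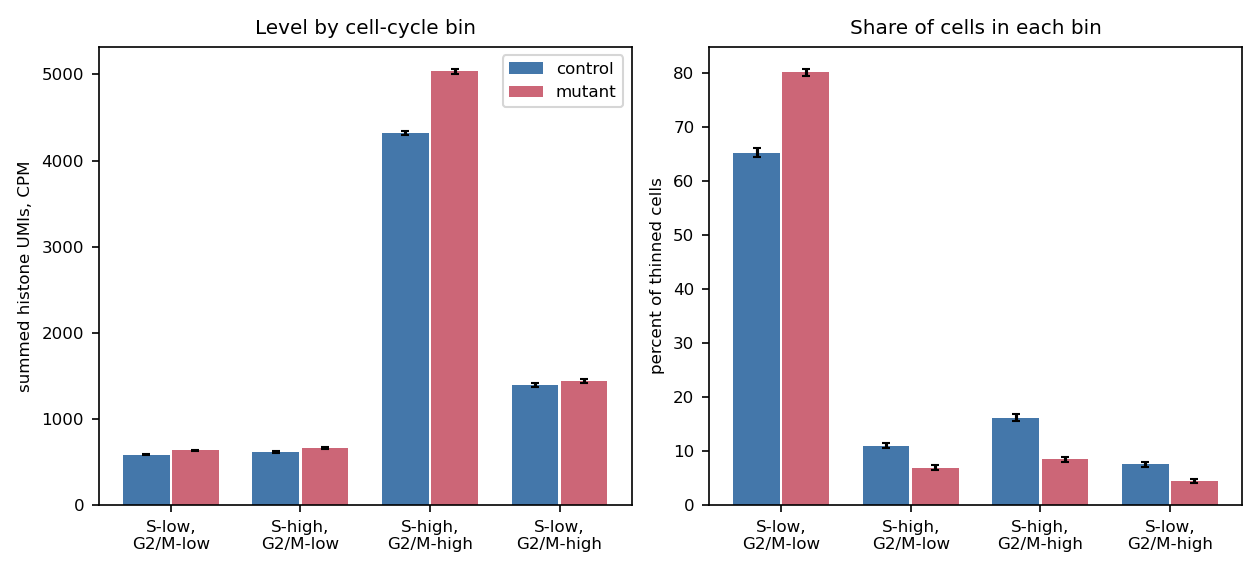
The left panel plots the summed level of all histone genes in CPM in each cell-cycle bin, and the right panel the percent of thinned cells in that bin, for control (blue) and mutant (red). Error bars are exact 95% counting intervals (Poisson left, binomial right). The bin high for both lists reaches 4317 CPM in control and 5034 CPM in mutant and holds 16.2% and 8.45% of the cells.

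The linker histone genes were the subtype with the largest difference within cells high for both lists, at 1093 CPM in control and 1498 CPM in mutant, a ratio of 1.37 (1.35 to 1.39). H2A had a ratio of 1.13, H3 of 1.08, H4 of 1.05 and H2B of 1.01 there. Hist1h1b, the most abundant H1 gene by UMIs (chromosome 13, 21779883 to 21780625), was at 671 and 961 CPM in these cells, a ratio of 1.43, and at 166 and 136 CPM in the whole libraries. Hist1h1e, whose annotated 3′ sequence overlaps Hist1h2be, was at 286 and 371 CPM in these cells (1.30), Hist1h1a at 47.2 and 62.9 CPM (1.33) and Hist1h1d at 46.1 and 59.0 CPM (1.28). Hist1h1c was at 42.1 and 43.5 CPM, with an interval from 0.95 to 1.12 that includes no difference. Over the whole libraries the same 5 genes were lower in the mutant, at ratios from 0.765 for Hist1h1d to 0.840 for Hist1h1e. In cells low for both lists all 5 were also lower, with intervals clear of 1 for all except Hist1h1a, which was at 1.17 and 1.03 CPM. The S-phase and G2/M genes of the lists were lower there too, with median log2 ratios of -0.29 and -0.34 beside 0.04 for all genes.

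Of the 53 members with at least 200 UMIs in cells high for both lists, 2 were more than 1.5-fold higher in the mutant (3.77%, against 10.5% of 11451 genes) and 0 were that much lower (against 4.59%). This is a count by size with no test. The 2 were Hist1h2ap, whose 3′ sequence is shared with another member, at 383 and 581 CPM, and Hist1h2br, at 8.23 and 12.5 CPM, which start 236 bases apart head to head. Both were named for this count after their values were seen, although Hist1h2ap is also among the 3 highest H2A genes. In cells low for both lists, 7 of 36 members were more than 1.5-fold higher (19.4%, against 10.2% of 15305 genes) and 3 lower (8.33%, against 8.88%). The 3 were Hist1h3c, Hist1h2ag and Hist1h2bk.

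Among H2A genes, Hist1h2ae held the most UMIs of any member (chromosome 13, 23570517 to 23571220). It was at 257 CPM in control and 157 CPM in mutant, a ratio of 0.609 (0.600 to 0.619). Within cells high for both lists it was at 1025 and 995 CPM (0.970), and within cells low for both at 25.7 and 30.5 CPM (1.19). The lower whole-library level was thus not seen at that size in either bin. Hist1h2ap was at 96.0 and 89.6 CPM in the whole libraries. Hist3h2a was at 46.3 and 41.8 CPM, and was lower in both bins, at 65.3 and 50.4 CPM in cells low for both lists.

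The 3 highest H3 and the 3 highest H4 genes had their highest levels in cells high for both lists. Hist1h3c was at 44.2 and 27.5 CPM in the whole libraries (0.622). It was at 173 and 195 CPM in cells high for both lists and at 2.34 and 1.03 CPM in cells low for both. Hist1h3e was at 27.6 and 21.05 CPM and Hist1h3i at 20.6 and 12.1 CPM in the whole libraries. Among H4 genes Hist1h4d was at 48.6 and 37.0 CPM and Hist1h4i at 42.8 and 29.4 CPM. Hist1h4h was higher in the mutant, at 13.1 and 14.99 CPM, and in cells low for both lists it was at 4.18 and 10.1 CPM, a ratio of 2.42 (2.16 to 2.71).

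The members with the lowest ratios were Hist1h2bk at 8.74 and 3.73 CPM (0.427), Hist1h3a at 6.18 and 2.70 CPM (0.436) and Hist1h2ag at 19.0 and 8.30 CPM (0.437). Next came Hist1h2bj at 18.7 and 10.3 CPM (0.548) and Hist2h2bb at 10.2 and 5.70 CPM (0.558). The first 3 were lower in the mutant within cells high for both lists too, at ratios of 0.745, 0.737 and 0.733, and within cells low for both, at 0.379, 0.497 and 0.350. Hist2h2bb was at 39.2 and 38.6 CPM in cells high for both, an interval from 0.902 to 1.07. Hist1h2ag and Hist1h2bj form 1 of the head-to-head pairs, with starts 270 bases apart. At the other end stood Hist1h2bc, Hist3h2ba, Hist4h4 at 3.37 and 3.93 CPM (1.16), Hist1h3d at 4.74 and 5.52 CPM (1.16) and Hist1h4h.

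How strongly a member followed the cell cycle differed widely. Of the 55 members, 40 were at least 10-fold higher in cells high for both lists than in cells low for both in control, and 40 in mutant. The 2 sets were not the same: Hist2h2aa1 was at 10.5-fold in control and 7.17-fold in mutant, and Hist1h4c at 9.84-fold and 13.1-fold. The median was 15.4-fold in control and 18.5-fold in mutant. Hist1h1b was 71.1-fold and Hist1h3c 73.9-fold higher in control, and Hist1h2ae 39.9-fold. At the low end Hist1h1e was 6.72-fold, Hist1h2ac 3.18-fold, Hist2h4 2.84-fold, Hist1h1c 2.69-fold and Hist2h2be 2.01-fold higher. In control 4 members were lower in the cycling cells: Hist3h2a at 0.333 times, Hist3h2ba at 0.355, Hist1h2bc at 0.497 and Hist4h4 at 0.701. In mutant the first 3 were again lower, at 0.350, 0.264 and 0.438, while Hist4h4 was at 1.07. The members named in this paragraph that no earlier rule names, Hist2h2aa1, Hist1h4c, Hist1h2ac, Hist2h4 and Hist2h2be, were chosen after their values were seen.

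**Figure D2:**
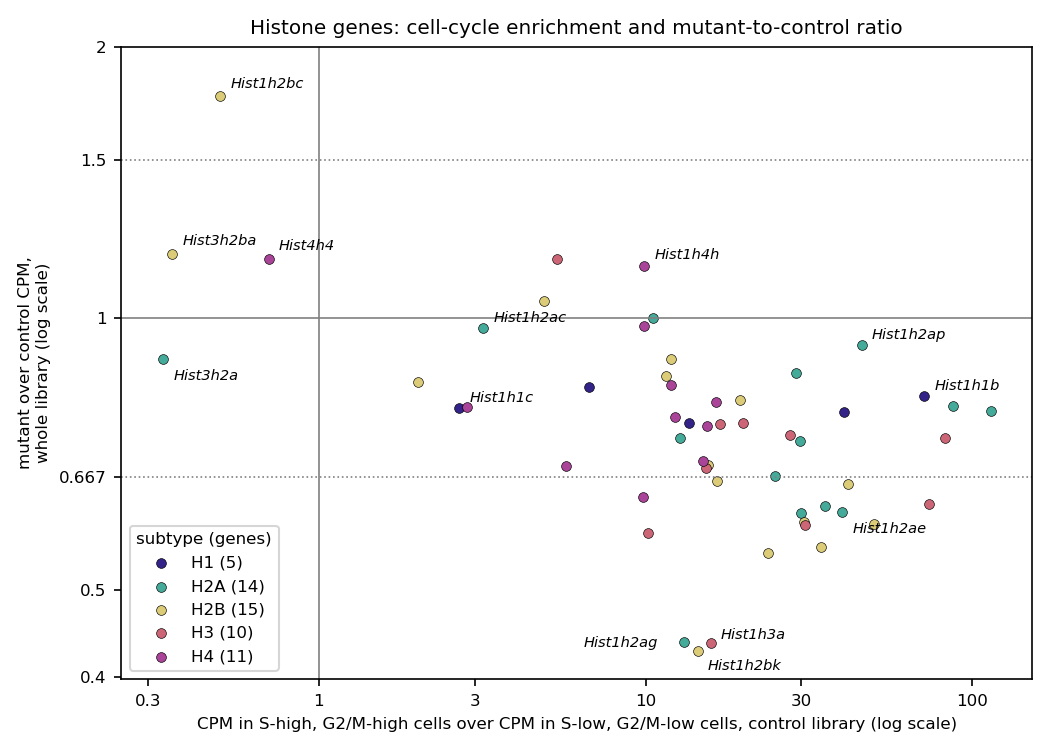
Each point is 1 of the 55 histone genes at a mean of 1 CPM or more, coloured by subtype. The x axis is its control CPM in cells high for both lists over that in cells low for both, and the y axis its mutant over control CPM in the whole libraries; both are log scales and dotted lines mark 1.5-fold. The 4 genes left of 1 are Hist3h2a, Hist3h2ba, Hist1h2bc and Hist4h4, and Hist1h2bc alone is above the upper dotted line, at 1.76.

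The annotated ends of the transcripts ran alongside this order. Only members at a mean of 1 CPM or more with a stem-loop in their longest transcript were taken here. Of these, 20 had 100 or more annotated bases after it. Their enrichment in cells high for both lists had a median of 8.28-fold in control, from 0.333 to 39.9. The 18 with fewer bases after it had a median of 20.0-fold, from 9.91 to 87.7. In mutant the medians were 8.07-fold and 28.5-fold. The limit of 100 bases was chosen after the values were seen, and the ranges overlap. Hist3h2ba has 169 annotated bases after its stem-loop, Hist3h2a 1643 and Hist4h4 2445. Hist1h2bc has a transcript of 2 exons with no stem-loop match, while its head-to-head neighbour Hist1h2ac has one with 2010 bases after it.

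Subtype make-up changed with the bins in the same way in both libraries. In cells low for both lists H2B made up 56.3% of histone UMIs in control and 60.5% in mutant, and H1 12.4% and 10.0%. In cells high for both, H2B made up 11.1% and 9.57%, and H1 25.3% and 29.8%. H2A was the largest subtype there, with 43.7% and 42.5%.

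**Figure D3:**
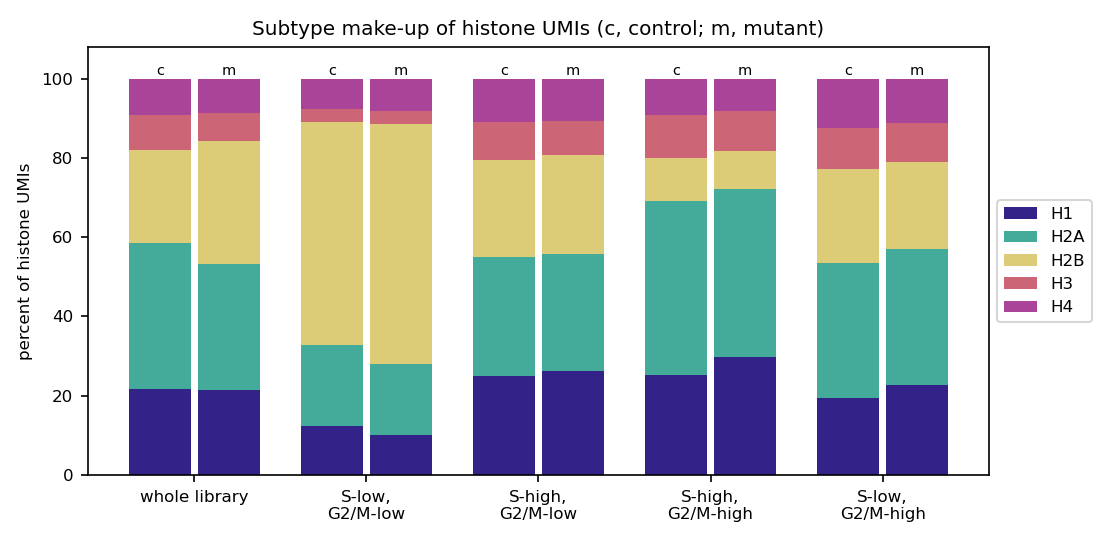
Stacked bars give the percent of histone UMIs in each subtype, for control (c) and mutant (m), in the whole libraries and in the 4 cell-cycle bins. H2B fills 56.3% and 60.5% of the bars of cells low for both lists and 11.1% and 9.57% of those of cells high for both.

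The 2 H2B genes behind this had different patterns. Hist3h2ba (chromosome 11, 58948920 to 58949533) was at 174 CPM in control and 205 CPM in mutant, a ratio of 1.18. In cells low for both lists it was at 241 and 253 CPM (1.05), and in cells high for both at 85.7 and 66.7 CPM (0.779). Hist1h2bc (chromosome 13, 23684199 to 23692908) was at 52.4 and 92.5 CPM, a ratio of 1.76 (1.72 to 1.81). It was higher in the mutant in both bins, at 63.6 and 105 CPM in cells low for both (1.66) and at 31.6 and 46.1 CPM in cells high for both (1.46). Hist1h2ac, which starts 251 bases away on the other strand and shares the DNA printed above, was at 7.84 and 7.65 CPM, with an interval of the ratio from 0.904 to 1.05.

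Cells were also gated on fixed markers of 21 cell types, and a gate name below means cells that are like that type by these markers. Cells gated as granule cell precursors held a median of 6 of their 7 markers in control and 5 in mutant, and those gated as progenitors or astroglia 7 and 6 of 10. The gates are close to each other: control granule cell precursors also held a median of 4 of the 8 markers of differentiating granule neurons. Granule cell precursors, the proliferating cells of the outer cerebellum, had the highest level among gates with at least 50 cells, 2121 CPM in 1828 control cells and 2647 CPM in 351 mutant cells (ratio 1.25, 1.23 to 1.27). Cells gated as unipolar brush cells, named after glutamatergic interneurons of the rhombic lip, were at 1837 and 1986 CPM (1.08). This gate also took in cycling cells, as 24.0% of it in control and 22.8% in mutant were S-high. Differentiating granule neurons were at 1369 and 1696 CPM (1.24), and neural progenitors or astroglia at 919 and 1033 CPM (1.12). Oligodendrocyte precursors were at 870 and 1111 CPM (1.28) in 139 and 67 cells, but the ratio was 0.560 with a gate 1 marker stricter. Cells that passed no gate went the other way, at 1517 CPM in 6635 control cells and 1204 CPM in 7120 mutant cells (0.793). S-high cells made up 30.6% of these ungated control cells and 14.2% of the mutant ones.

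In the 4 neural gates with the most cells in both libraries, the share of S-high cells differed less between the libraries than over all cells. It was 55.7% in control and 63.3% in mutant for granule cell precursors, 17.95% and 15.5% for differentiating granule neurons, 24.0% and 22.8% for unipolar brush cells and 19.2% and 21.5% for progenitors or astroglia. Oligodendrocyte precursors, with fewer cells, had 23.3% and 35.5%. Within cells high for both lists the 4 gates' levels were 4254 and 4800 CPM for granule cell precursors and 4404 and 6588 CPM for differentiating granule neurons, the latter from 272 and 53 cells. They were 5552 and 5824 CPM for unipolar brush cells and 3915 and 4102 CPM for progenitors or astroglia. The ratios were 1.13, 1.496, 1.05 and 1.05.

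By genes, 10 of 33 members with 200 UMIs were more than 1.5-fold higher in mutant differentiating granule neurons (30.3%), where 3.91% of genes tested were. In granule cell precursors the count was 4 of 38 (10.5%, against 2.71%), in unipolar brush cells 4 of 27 (14.8%, against 3.86%) and in progenitors or astroglia 2 of 32 (6.25%, against 4.90%). No member was more than 1.5-fold lower in these 4 gates, where 2.98%, 3.08%, 1.30% and 7.05% of genes were, in the same order. No test stands behind these counts. By summed level, H1 had the highest ratio of the subtypes in 3 of these gates, 1.42 in granule cell precursors, 1.49 in differentiating granule neurons and 1.25 in progenitors or astroglia. In unipolar brush cells H4 had the highest, 1.19, followed by H1 with 1.17. By the median over genes the order differed in differentiating granule neurons, where the log2 ratio was 0.64 for H2A and 0.49 for H1, and in unipolar brush cells, where it was 0.27 for H2A and 0.08 for H1. Hist1h1b was at 296 and 469 CPM, 119 and 190 CPM and 86.3 and 127 CPM in granule cell precursors, differentiating granule neurons and progenitors or astroglia.

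Outside the neural lineages, fibroblasts or meningeal cells were at 651 and 664 CPM (interval of the ratio 0.965 to 1.08) and microglia or macrophages at 897 and 986 CPM. Endothelial cells were at 673 and 596 CPM (0.886, 0.816 to 0.962), but at 1.07 times control without the cell filter, 1.06 with doublets kept and 1.09 as a mean over cells. Choroid plexus epithelium was at 265 and 480 CPM (1.81) and pericytes or mural cells at 438 and 846 CPM (1.93). The pericyte ratio was 1.28 with doublets kept, 1.30 without the cell filter and 1.35 as a mean over cells. That of choroid plexus epithelium was 1.60 with doublets kept and 1.60 without the cell filter. Cells high for both lists were few: 3 of 154 control and 15 of 320 mutant choroid plexus cells that were binned (1.95% and 4.69%). Among pericytes they were 13 of 228 and 13 of 255 (5.70% and 5.10%). Within cells low for both lists, choroid plexus epithelium was at 242 and 260 CPM, an interval from 0.973 to 1.19, and pericytes at 307 and 367 CPM (1.20). Erythroid cells were at 296 and 348 CPM (1.18), but at 0.807 times control with haemoglobin, mitochondrial and ribosomal UMIs left out of the denominator.

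**Figure D4:**
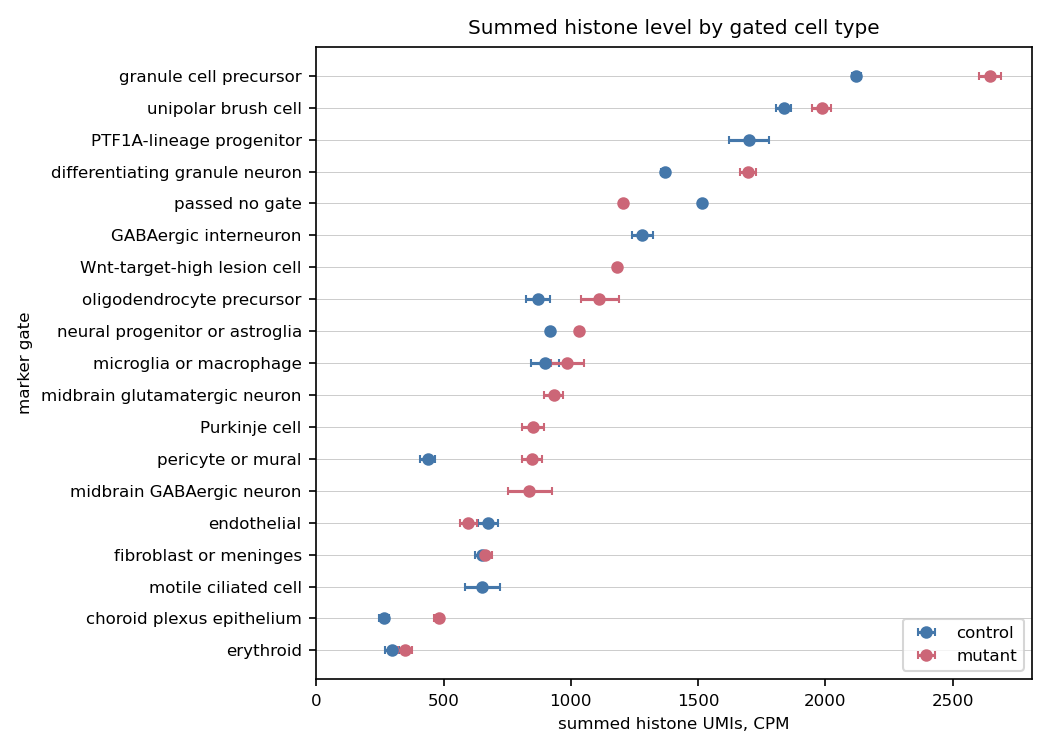
The x axis gives the summed histone level in CPM for each marker gate (y axis) in control (blue) and mutant (red), with exact 95% Poisson intervals, for library and gate combinations with at least 50 cells. Granule cell precursors lie highest, at 2121 and 2647 CPM, and erythroid cells lowest in the mutant, at 348 CPM.

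Cells gated on 8 Wnt-pathway targets and lesion genes, a list drawn from earlier results on these libraries, numbered 3553 in the mutant. Among 15969 control cells there were 0. As the list came from these same libraries, this count is not independent of how its genes were chosen. The histone level of the gated mutant cells was 1181 CPM, 735 CPM in those low for both lists and 5406 CPM in those high for both. S-high cells made up 13.0% of them. H2B held 37.8% of their histone UMIs, H2A 27.8% and H1 18.5%. Hist3h2ba was at 245 CPM, and Hist1h2bc and Hist1h2ae both at 128 CPM. In mutant progenitors or astroglia these 3 genes were at 40.01, 120 and 150 CPM.

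Hist3h2ba was highest in gates of neurons. In mutant cells it was at 512 CPM in midbrain glutamatergic neurons, 500 in Purkinje cells and 437 in midbrain GABAergic neurons, all from gates with too few control cells for a ratio. These gates rest on few markers, with medians of 4 of 7 for Purkinje cells and 4 of 6 for each midbrain type. Only the fewest markers allowed were held by 113 of 133 Purkinje, 111 of 225 midbrain glutamatergic and 11 of 52 midbrain GABAergic cells. Differentiating granule neurons had 335 CPM in control and 331 CPM in mutant, and granule cell precursors 83.9 and 84.5 CPM. Choroid plexus epithelium had 12.5 and 19.3 CPM and endothelial cells 15.7 and 19.8 CPM. Hist1h2bc had another order. It was at 168 and 156 CPM in fibroblasts or meningeal cells and at 180 and 172 CPM in microglia or macrophages, both lower in the mutant by value. It was at 20.3 and 48.2 CPM in unipolar brush cells, 28.4 and 43.9 CPM in granule cell precursors and 44.05 and 62.9 CPM in differentiating granule neurons. Ungated cells had 39.8 and 77.7 CPM. Hist1h1c was highest in microglia or macrophages, at 111 and 113 CPM.

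**Figure D5:**
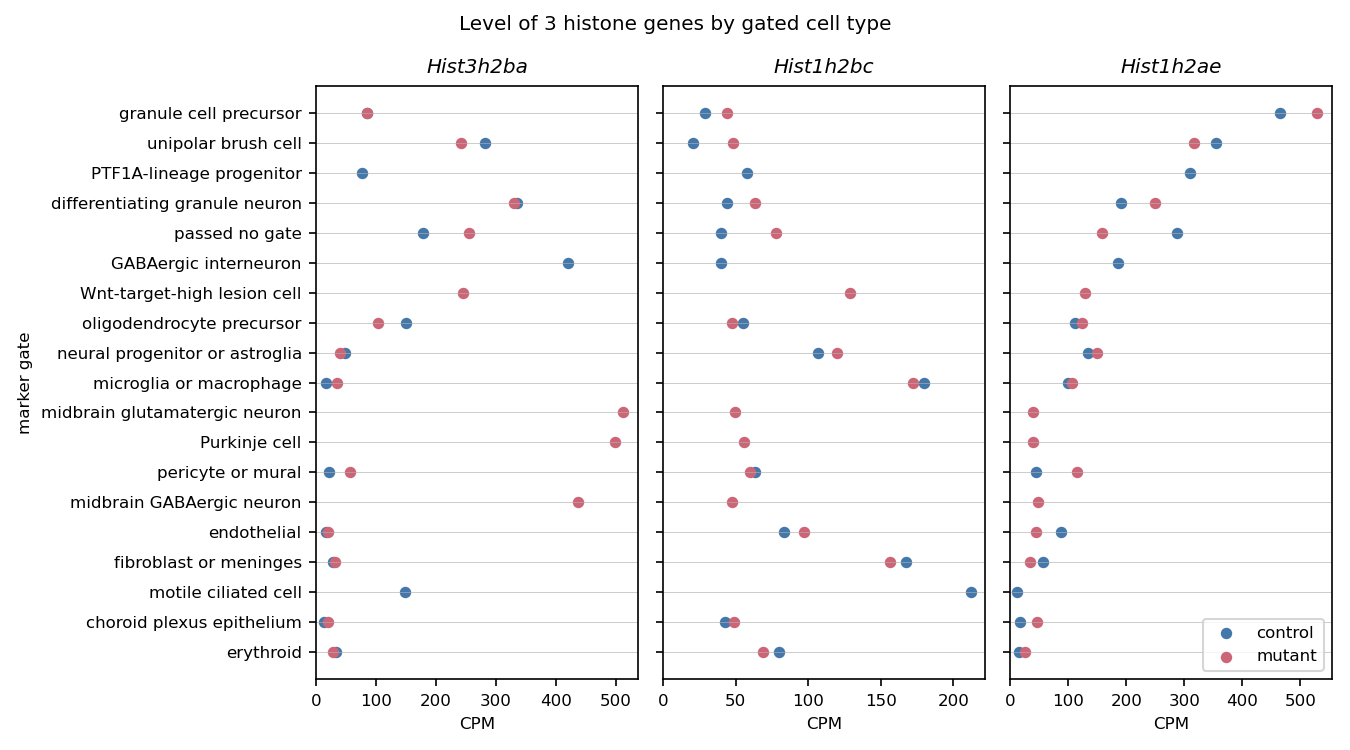
Level in CPM (x axis) of Hist3h2ba, Hist1h2bc and Hist1h2ae by marker gate (y axis) in control (blue) and mutant (red), for library and gate combinations with at least 50 cells. Hist3h2ba reaches 512 CPM in midbrain glutamatergic neurons, Hist1h2bc is at 180 and 172 CPM in microglia or macrophages, and Hist1h2ae is highest in granule cell precursors, at 464 and 528 CPM.

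Loose RNA from broken cells can give histone UMIs in any droplet, and its amount was not measured here. Among cells thinned to 3000 UMIs, 76.4% of control and 75.9% of mutant cells held at least 1 histone UMI, and before thinning 87.0% and 87.5%. Erythroid cells, which lose their nuclei, held one in 32.4% and 40% after thinning and in 82.4% and 85.7% before. Their median depths before thinning were 21109 and 20759 UMIs, against 10016 and 9714 over all cells. Choroid plexus epithelium held one in 57.8% and 52.2% after thinning and in 91.7% and 91.4% before. The part of loose RNA in each gate's level was not tested.

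Genes that act with the histone genes were counted from lists. Of 19 genes of histone gene transcription and mRNA processing tested, 4 were more than 1.5-fold lower in the mutant (21.1%) and 0 higher, where 7.72% of all genes were that much lower and 11.0% higher. The largest differences in the whole libraries were E2f1, a transcription factor of S-phase genes, at 57.2 and 22.2 CPM (0.387), and Ccne2, a cyclin of the G1/S transition, at 14.4 and 8.42 CPM (0.584). The related cyclin gene Ccne1, named after its values were seen, went the other way, at 13.98 and 19.4 CPM (1.39, 1.32 to 1.46). In cells low for both lists Ccne1 was at 3.36 and 13.3 CPM (3.95), where the ratio of Ccne2 was 1.07. In cells high for both lists the ratios were 1.28 for Ccne1 and 0.693 for Ccne2. Slbp, which binds the stem-loop, was at 105 and 83.6 CPM (0.797) and at 227 and 233 CPM in cells high for both lists. Npat, which activates histone genes, was at 32.4 and 34.8 CPM. Of 11 replication-independent variants 3 were more than 1.5-fold lower (27.3%), with Cenpa, the centromeric H3, at 127 and 66.0 CPM (0.521) and H2afx, the DNA damage-marked H2A, at 193 and 118 CPM (0.613). Of 18 chaperones, Nap1l1 was higher, at 588 and 968 CPM (1.65), and Asf1b lower, at 20.4 and 11.5 CPM (0.566). At 5.56% each way, both shares were below those over all genes. Among the S-phase genes 13 of 38 (34.2%) and among the G2/M genes 33 of 51 (64.7%) were more than 1.5-fold lower, led by Rad51ap1 (0.506) and Tyms (0.508), and by Cks2 (0.494) and Birc5 (0.515).

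Over 29 sums of a gate in a library, the genes outside the lists whose log2 level ran most like that of the summed histone genes were Suv39h2, a histone methyltransferase (Pearson r 0.922), Dscc1 (0.895), Smc2, a condensin subunit (0.894), Dnajc9 (0.885) and Gins1, a subunit of the replicative helicase (0.881). Rfc4, Ezh2, Dctpp1, Nmral1 and Ube2s followed, down to 0.870. These sums share libraries and differ in depth, so the coefficients are a description.

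Some members cannot be told apart by their reads. Of the 60-base words in the last 400 bases of a member's longest transcript, at least 90% also occurred in another member for 11 of the 67 genes, and none did for 23. Hist2h2aa1 and Hist2h2aa2 are alike over the whole window, and their control UMIs were 594 and 1. Hist1h2ap and Hist1h1e are also among the 11, the latter because its annotated span overlaps Hist1h2be on the same strand. How UMIs were split or dropped between such genes could move their single values, and the subtype sums less.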

How the data were processed

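Single cells of whole cerebella were digested, sorted for live cells by 7-AAD and sequenced as 3′ libraries, with 40000 cells loaded per library and 3 samples pooled in each, per the labels' protocols. The deposited files hold raw UMI counts per gene and cell, which the authors produced from their reads using Cell Ranger 7.0.1 and the mm10 build, per the submitters' processing notes. The annotation and alignment settings are not stated in the sources read here.

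The members and lists were chosen with earlier results of these data known, and the limits of the bins and gates were set after the values were seen. Cells with at least 1000 UMIs, 500 genes and at most 10% mitochondrial UMIs passed (16812 control, 16482 mutant of 21457 and 21596 barcodes), and Scrublet in scanpy 1.11.5 (expected rate 16%) removed 843 and 618 as doublets. UMIs were summed over cells and divided by all UMIs of those cells (CPM). For bins, 13573 and 13836 cells deep enough were thinned to 3000 UMIs; 2396 and 2028 were too shallow. A gate needed at least 3 markers, 50% of its list and a lead of 0.1 in that share over the next type; ratios needed 50 cells per library. Genes were tested for size at a mean of 1 CPM, or 200 UMIs in bins and gates. Intervals are Poisson, Clopper-Pearson or conditional binomial. The depth was 175830545 control and 173436433 mutant UMIs. Scripts were tested on simulated data. Named were the 3 highest genes per subtype, all H1 genes, the 5 most extreme ratios each way, the 2 most extreme genes past 1.5-fold each way per list, the 10 genes most alike, Smarca4 and Ctnnb1. Alternatives changed the cell filter, doublets, the denominator, the weighting of cells, the gates, the minimum and the fold, and left out Hist1h2ae.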

Additional observations from a re-analysis of the deposited data

Results flagged for a closer look

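These results went in opposite directions between cell groups, with each counting interval clear of 1; the differences between groups were not tested, since each genotype has 1 library. The summed histone level in endothelial cells was 0.886 times control, while 9 other gates were higher in the mutant. The endothelial ratio turned to 1.07 without the cell filter, 1.06 with doublets kept and 1.09 as a mean over cells. Of the 9, oligodendrocyte precursors turned to 0.560 with a stricter gate and erythroid cells to 0.807 with haemoglobin, mitochondrial and ribosomal UMIs left out of the denominator, so this contrast depends on the processing. Between cells low for both cell-cycle lists and cells high for both, the mutant over control ratio of Hist1h2ae went from 1.19 to 0.970 and that of Hist3h2ba from 1.05 to 0.779. The other way, Hist1h1b went from 0.904 to 1.43, Hist1h1e from 0.896 to 1.30, Hist1h1d from 0.795 to 1.28 and Hist1h3c from 0.439 to 1.12. The bin low for both lists was not level between the libraries in the lists themselves. Its S-phase and G2/M genes had median log2 ratios of -0.29 and -0.34, beside 0.04 for all genes. The part of this in the members' ratios was not tested.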

How the results depend on the processing

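No paired analysis was possible because each genotype has 1 library. The whole-library ratio of 0.836 was 0.818 without a cell filter, 0.827 with doublets kept, 0.817 with haemoglobin, mitochondrial and ribosomal UMIs left out of the denominator, 0.886 as a mean over cells and 0.885 without Hist1h2ae. In S-high cells the ratio of 1.11 became 1.10 without the filter and 1.10 with doublets kept, 1.06 with the other denominator and 1.16 without Hist1h2ae. In granule cell precursors 1.25 became 1.21 with the other denominator, 1.20 as a mean over cells, 1.28 without Hist1h2ae and 1.30 with a stricter gate. In differentiating granule neurons 1.24 became 1.17 without the filter or with doublets, 1.19 as a mean over cells and 1.28 with a stricter gate. In unipolar brush cells 1.08 became 1.05 without the filter, with doublets or with the other denominator, 1.11 as a mean over cells and 1.13 without Hist1h2ae. In progenitors or astroglia 1.12 became 1.09 without the filter or with doublets, 1.15 with the other denominator or a stricter gate and 1.10 as a mean over cells. The direction held in each of these. It turned in endothelial cells (0.886 to 1.07 without the filter, 1.06 with doublets and 1.09 as a mean over cells), in erythroid cells (1.18 to 0.807 with the other denominator) and in oligodendrocyte precursors (1.28 to 0.560 with a stricter gate). In fibroblasts or meningeal cells 1.02 became 0.963 without the filter, 0.960 with doublets, 0.992 with the other denominator and 0.961 with a stricter gate. The intervals of these fibroblast ratios all included 1. In pericytes 1.93 became 1.28 with doublets, 1.30 without the filter and 1.35 as a mean over cells; the cause was not tested. The 16 lower members became 6 at a minimum of 10 CPM, where 24 members were tested, and 3 at 2-fold. The 1 higher member became 2 with no minimum and 0 at 2-fold. Shares over all genes at these settings are not given, so these counts cannot be set against a background. The H2B share of 23.4% and 31.1% became 28.5% and 35.7% without Hist1h2ae, and 31.3% in mutant without the filter.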
